A study of Homo sapiens with 24 samples.

Results

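Of the 24041 Ago2 crosslinking peaks listed for 293S cells, 335 peaks in 312 genes carried a match to the seed of the miR-30 family of microRNAs (miRNAs). They were chosen as every peak, in any part of a transcript, whose list of seed matches in the authors' deposited table names miR-30e-5p, which the table groups with miR-30a-5p, miR-30b-5p, miR-30c-5p and miR-30d-5p. They made up 1.39% of all peaks, and 5.12% of the 6088 genes with a peak held at least 1 of them. The choice used the seed match and not the log ratio or the signal level of a peak. The authors matched peaks to the seeds of their top 50 miRNA families, per the file header, which does not state how these were ranked.

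The study compared 293S cells, a human embryonic kidney line grown as an adherent layer, without treatment and after 30 min in 1 mM sodium arsenite, an oxidative stressor that shuts down translation and makes cells form stress granules. RNA bound to Ago2 was captured by crosslinking and immunoprecipitation (CLIP) with an Ago2 antibody, and 24 samples formed 6 groups of 4 biological replicates each: mRNA CLIP, RNA-seq and a CLIP library of small RNAs that the labels call the LO band, each untreated and with arsenite. Each biological replicate gave both a CLIP and an RNA-seq library, and the RNA-seq data were not used here. The tables used here held 1 value per peak or miRNA over all replicates, so sequencing depth was unknown and no standard deviation, replicate test or p-value for peaks could be given.

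A miRNA guides Argonaute proteins such as Ago2 to mRNAs, mainly by pairing of its seed, the bases from position 2 to 8, with sites that lie most often in the 3' untranslated region (3'UTR). Bound mRNAs are translated less and lose their poly(A) tails. The miR-30 family is abundant in epithelial and kidney cells, and its known targets include genes of apoptosis, of migration and of protein glycosylation.

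The 5p miRNAs of the family share 1 seed, which is why a peak could be assigned to the family but not to a member. RefSeq (GRCh38.p14) held mature sequences for 3 of the 5, shown 5′ to 3′ with the seed in capitals so that the shared and the differing parts can be seen.
miR-30e-5p: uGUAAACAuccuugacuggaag
miR-30a-5p: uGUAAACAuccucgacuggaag
miR-30c-5p: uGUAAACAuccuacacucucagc
The first 12 bases were identical in all 3. miR-30e-5p and miR-30a-5p were identical at 21 of 22 positions, and miR-30c-5p matched each of them at 17 of 22. The 7-letter site that pairs with this seed is UGUUUAC in the target RNA. The 3p arm of the same hairpin has a different seed and is not part of the match.
miR-30e-3p: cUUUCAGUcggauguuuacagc
The assignment of peaks to seeds is the authors', and the sequences under the peaks were not read here.

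The first question was how Ago2 signal at miR-30 peaks differed between arsenite-treated and untreated cells. For each peak the authors' deposited table gives a log average, the level of normalized CLIP abundance over both treatments, and a log ratio, in which values above 0 mean more signal with arsenite than without. Both are the authors' peak values. Their log base and normalizer are not stated, so they were not turned into folds, and more Ago2 on a transcript and more of the transcript cannot be told apart from them. The 335 miR-30 peaks had a median log ratio of 1.60, with quartiles of 0.84 and 2.14 and a range from -1.61 to 3.97. Above 0 lay 313 of them, or 93.4%. The same held for 70.3% of all peaks, whose median was 0.65. A log ratio above 1 was listed for 234 miR-30 peaks, or 69.9%, against 39.1% of all peaks. Only 6 miR-30 peaks, or 1.79%, lay below -1, against 7.43% of all peaks. No replicate spread was available, and these are descriptions of the 2 sets of peaks.

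Most miR-30 peaks lay in 3'UTRs, but those in coding sequence (CDS) had log ratios of the same size. The 3'UTR held 271, or 80.9%, of the miR-30 peaks, where it held 51.0% of all peaks. Their median log ratio was 1.61, with 254 of 271 above 0 and 191 above 1. Over all 3'UTR peaks the median was 0.88 with 76.2% above 0 and 45.8% above 1, and over 3'UTR peaks with no seed match to any of the 50 listed families (seedless peaks) it was 0.68. The 56 CDS peaks had a median of 1.57, with 53 above 0 and 39 above 1. All CDS peaks had a median of 0.58 with 68.4% above 0 and 36.6% above 1, and seedless CDS peaks a median of 0.45. Whether the CDS and 3'UTR differ in how far miR-30 peaks lie above the rest was not tested.

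**Figure D1:**
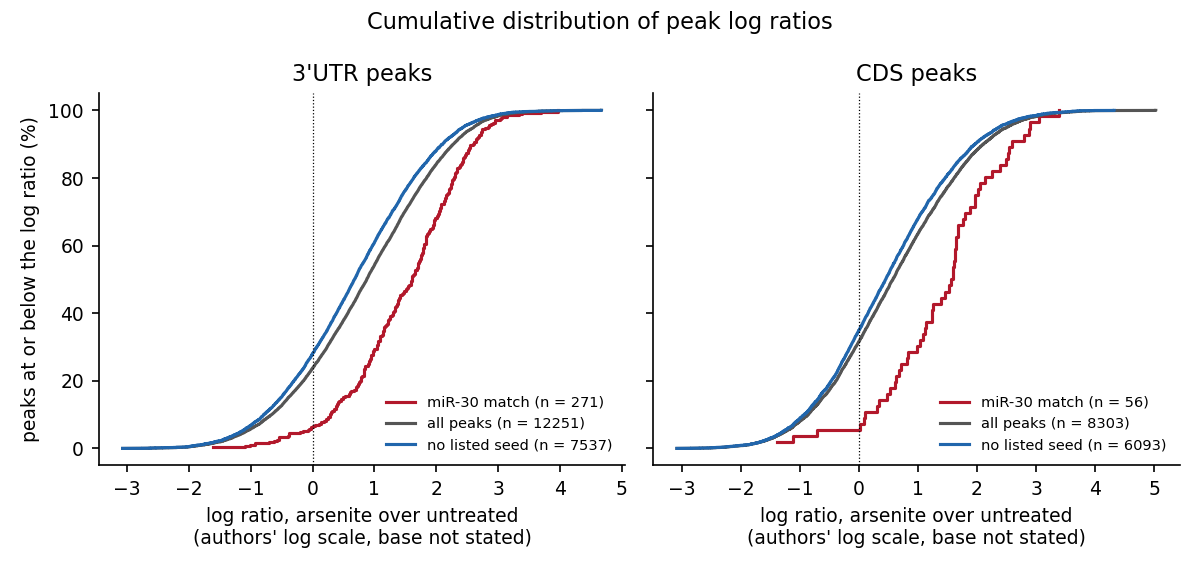
Cumulative share of peaks (vertical axis, %) at or below each log ratio of arsenite over untreated (horizontal axis, the authors' log scale), for 3'UTR peaks on the left and CDS peaks on the right. The curve of miR-30 peaks lies to the right of all peaks and of seedless peaks in both panels, with medians of 1.61 against 0.88 and 0.68 in the 3'UTR and 1.57 against 0.58 and 0.45 in the CDS.

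The remaining 8 miR-30 peaks were few and mixed. The 5'UTR held 2 of them, in ANAPC13, a subunit of the anaphase-promoting complex, with a log ratio of 1.77, and in SH2B1, an adaptor of receptor kinases, with -0.08, where 60.8% of all 5'UTR peaks lay above 0. Exons of noncoding RNAs held 6, of which 5 lay above 0, where 42.6% of all noncoding exon peaks did. The highest was in the lincRNA model TCONS_00029247, with 3.19. MALAT1, a long nuclear RNA, had the lowest, -1.10, at a low log average of -6.98.

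Peaks that matched miR-30 alone and peaks that also matched other families had the same median. The 239 peaks that matched miR-30 alone had a median of 1.60 with 223 above 0, and the 96 that matched at least 1 other family had a median of 1.60 with 90 above 0. With 1 other family the median was 1.57 over 80 peaks, and with 2 others it was 1.60 over 14. Peaks that matched exactly 1 listed family other than miR-30 numbered 5772, with a median of 0.96 and 77.1% above 0. The miR-30 peaks with no other match thus lay above the typical peak with a single match. Families with many peaks and a median near that of miR-30 included miR-17 with 1.67 over 716 peaks, miR-19 with 1.57 over 556 and miR-25/92 with 1.72 over 430. Smaller families were as near, such as miR-26 with 1.53 over its 172 peaks without a miR-30 match and miR-340-5p with 1.56 over 60. Without replicate values the order of families could not be tested.

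Among miR-30 peaks the log ratio hardly varied with the signal level and was lower at longer peaks. In 4 bins cut at the quartiles of the log average of all peaks, from low to high, the miR-30 medians were 1.53, 1.63, 1.40 and 1.61, and those of all peaks were 0.59, 0.83, 0.66 and 0.53. Over the 335 peaks, log average and log ratio had a Pearson correlation of 0.05 and a Spearman correlation of 0.01. These points come from the same libraries and are not replicates. The 140 miR-30 peaks of up to 42 nucleotides had a median of 1.70, the 125 of 43 to 60 nucleotides 1.60 and the 70 longer ones 0.96. All peaks had the same order at lower levels, with 1.02, 0.60 and 0.35. Length and log ratio had a Pearson correlation of -0.23 and a Spearman correlation of -0.21 over the miR-30 peaks. The median miR-30 peak was 46 nucleotides long, with a range from 22 to 138, and the median of all peaks was 50.

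The miR-30 peaks that overlapped another peak had a lower median than the rest, as did overlapping peaks in the whole table. Another peak on the same strand overlapped 35 miR-30 peaks, or 10.4%, where 27.6% of all peaks were overlapped. The 35 had a median of 0.91 with 30 above 0, and the 300 with no overlap had a median of 1.62 with 283 above 0. Over all peaks the median was 0.35 with 62.7% above 0 for those that overlapped another and 0.78 with 73.2% above 0 for those that did not. The overlapping miR-30 peaks were also longer, with a median of 57 nucleotides against 46, and the part of length in the difference was not tested. Both values of a peak were identical to those of another peak of the gene for 5 miR-30 peaks, in STARD3, WHSC1, PPARGC1B, PGM3 and C9orf85. These peaks do not add a separate measurement, and such repeats occurred for 563 of all peaks.

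A further comparison set miR-30 peaks beside other peaks of the same transcript. For each gene and region (3'UTR, CDS, 5'UTR or noncoding exon) that held both kinds, the median of its miR-30 peaks was set beside the median of its seedless peaks. In 123 of 178 such gene regions, or 69.1%, the miR-30 peaks were higher. The median difference was 0.72, with quartiles of -0.20 and 1.42 and a range from -2.94 to 3.54, and the 2 medians were 1.55 and 0.85. A difference above 1 occurred in 71 gene regions and one below -1 in 15. In the 3'UTR the median difference was 0.66 over 148 pairs, 100 of them above 0. In the CDS it was 1.11 over 26 pairs, 20 of them above 0. For miR-30 peaks that matched no other family the median difference was 0.76 over 124 pairs. The same measure gave 0.61 for miR-17 over 382 pairs, 0.68 for miR-19 over 275 and 0.76 for miR-25/92 over 226.

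**Figure D2:**
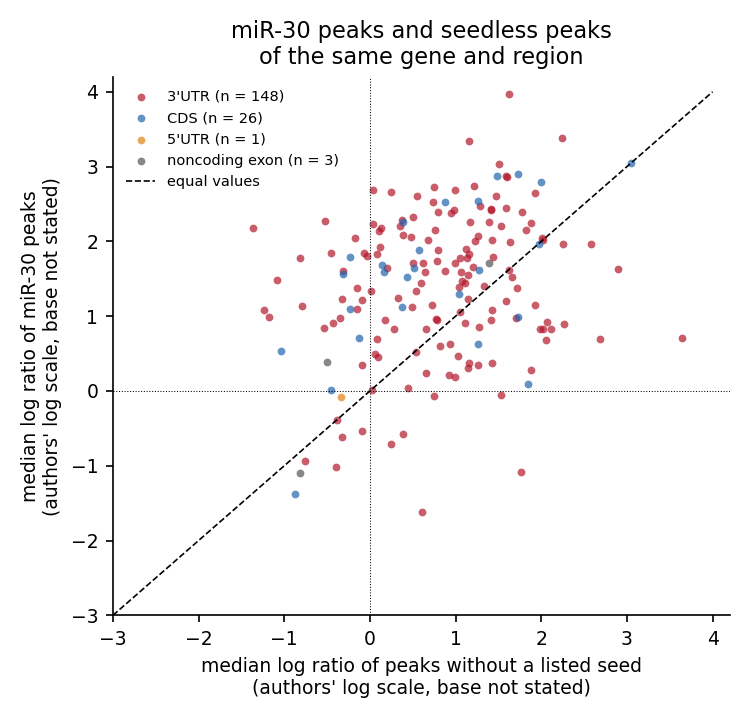
Median log ratio of the miR-30 peaks (vertical axis) against that of the seedless peaks of the same gene and region (horizontal axis), both on the authors' log scale, with 1 point per gene region and the region shown by colour. Of 178 points, 123 lie above the dashed line of equal values, and most lie above the horizontal line at 0.

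The miR-30 peaks lay above 0 in most gene regions, but in a smaller share of those whose seedless peaks were at or below 0. In 35 gene regions the seedless peaks had a median at or below 0, and in 27 of these the miR-30 peaks lay above 0. Over single peaks of the whole table, 93.4% of miR-30 peaks and 70.3% of all peaks did. The medians over these 35 were 1.09 for miR-30 peaks and -0.39 for seedless peaks. In the other 143 gene regions the miR-30 peaks lay above 0 in 137, with medians of 1.64 and 1.11. Across the 178 gene regions the values of both kinds of peak had a Pearson correlation of 0.28 and a Spearman correlation of 0.25. The 2 values of a gene share its transcripts and libraries.

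Against all other peaks of the gene and region, including those that match other families, the median difference was smaller, 0.44 over 214 pairs with 137, or 64.0%, above 0. It was 0.22 over 162 pairs when only peaks in the upper 75% of log averages were used and 0.33 over 82 pairs with only peaks above the median log average. Among the 232 miR-30 peaks in genes with at least 3 peaks, 61, or 26.3%, had the highest log ratio of their gene. The mean of 1 divided by the number of peaks of the gene was 17.2% over the same peaks. A further 67 miR-30 peaks were the only peak of their gene.

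Peaks of other families with high medians were set beside the miR-30 peaks of the same gene region. Both a miR-30 and a separate miR-17 peak occurred in 30 gene regions, where the miR-30 value was the higher in 10 and the median difference was -0.17. For miR-19 it was the higher in 16 of 37 with a median difference of -0.15, for miR-25/92 in 14 of 31 with -0.06, and for let-7 in 6 of 13 with -0.05. In these gene regions miR-30 peaks and peaks of the other family were both above 0 in 23, 32, 27 and 11 cases. Taken over single peaks of the whole table, 93.4% of miR-30, 93.3% of miR-17, 92.6% of miR-19 and 95.3% of miR-25/92 peaks lay above 0.

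The difference between miR-30 peaks and their seedless neighbours in the 3'UTR was present at every distance examined. The 22 seedless peaks that overlapped or touched a miR-30 peak of their gene had a median of 0.68. The median was 0.91 over 78 peaks at a gap of 1 to 100 nucleotides and 0.99 over 154 peaks beyond that and up to 500. Farther away it was 0.61 over 221 peaks beyond 500 and up to 2000 nucleotides and 0.36 over 79 peaks beyond 2000. The share of seedless peaks below their nearest miR-30 peak was 59.1% for the overlapping ones and 74.4%, 66.9%, 75.1% and 69.6% in the other bins. The median difference from that miR-30 peak was smallest at overlap, -0.34, and was -0.55, -0.73, -0.69 and -0.79 in the other bins. Seedless peaks within 500 nucleotides without overlap were thus higher than the median of all seedless 3'UTR peaks, 0.68, and those beyond 2000 were lower. Several of these peaks come from the same gene, and the trend was not tested.

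**Figure D3:**
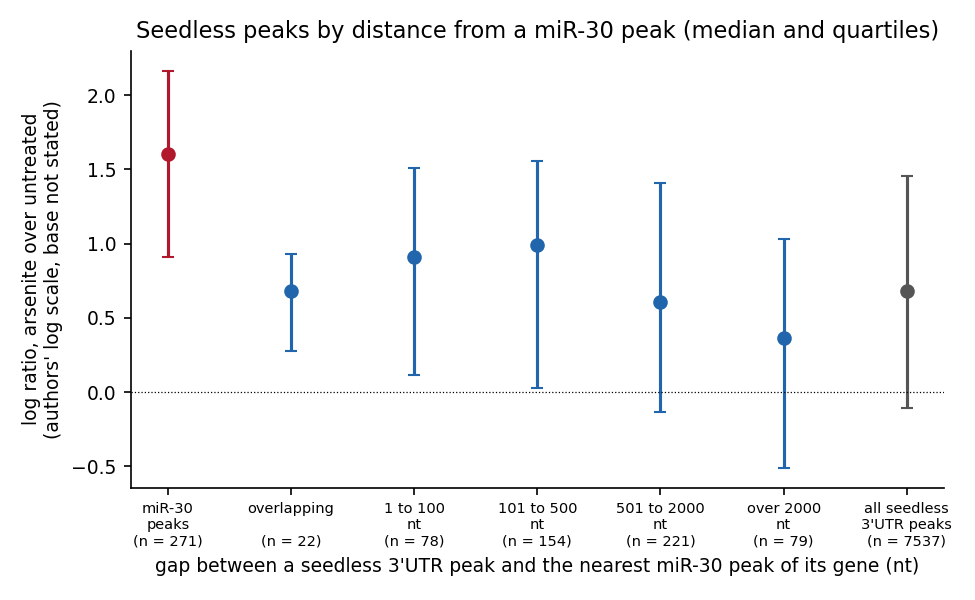
Median log ratio (points) and quartiles (bars) of seedless 3'UTR peaks by their gap to the nearest miR-30 peak of the gene, with the 271 miR-30 peaks on the left and all 7537 seedless 3'UTR peaks on the right. The miR-30 peaks stand at 1.61, and the seedless medians run from 0.68 at overlap through 0.91 and 0.99 to 0.61 and 0.36 with growing distance. The miR-30 peaks that overlap another peak, taken over all regions, had a lower median of 0.91.

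The highest miR-30 log ratios came from genes of varied function. Among the 278 miR-30 peaks in the upper 75% of log averages, ZFAND5, a zinc finger protein that activates the proteasome, had 3.97 in its 3'UTR in the authors' deposited table (hg19, chromosome 9, 74970095 to 74970139). Its 9 other peaks had a median of 1.71. Here and below, the other peaks of a gene are taken over all its regions unless a region is named. RNF168, a ubiquitin ligase that marks chromatin at DNA breaks, had 3.69 at the only peak of its gene, in the 3'UTR (chromosome 3, 196198247 to 196198279). HIGD2A, a mitochondrial factor for assembly of the respiratory chain, had 3.39 in its CDS (chromosome 5, 175815867 to 175815916). Its 2 other peaks, neither of them in the CDS, had a median of 1.58.

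MYBL2, a transcription factor that drives late cell cycle genes, had 3.34 in its 3'UTR (chromosome 20, 42344750 to 42344781), where its 2 other 3'UTR peaks had a median of 2.10 and all 4 of its other peaks a median of 0.21. SEC24A, a cargo adaptor of the COPII coat, had 3.14 (chromosome 5, 134061921 to 134061955) against a median of 0.80 at its 3 peaks without a miR-30 match. In both genes the miR-30 peak was the highest of the gene.

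The authors' deposited table gave 3.06 for TTC8, a subunit of the BBSome of primary cilia, 3.04 for C9orf85, 3.04 for STX7, a syntaxin of late endosomes, 2.96 for GLCE, a heparan sulfate epimerase, and 2.95 for CLCC1, a chloride channel of the endoplasmic reticulum. With TCONS_00029247 and 1 peak that is not reported by name, the 12 highest ran from 2.95 to 3.97. They had a median length of 36 nucleotides, and 10 of 12 matched miR-30 alone. In 8 of the 12 genes there were other peaks, and their median lay above 0 in all 8. Among these, the 1 other peak of C9orf85 has values identical to its miR-30 peak and adds no separate measurement.

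**Figure D4:**
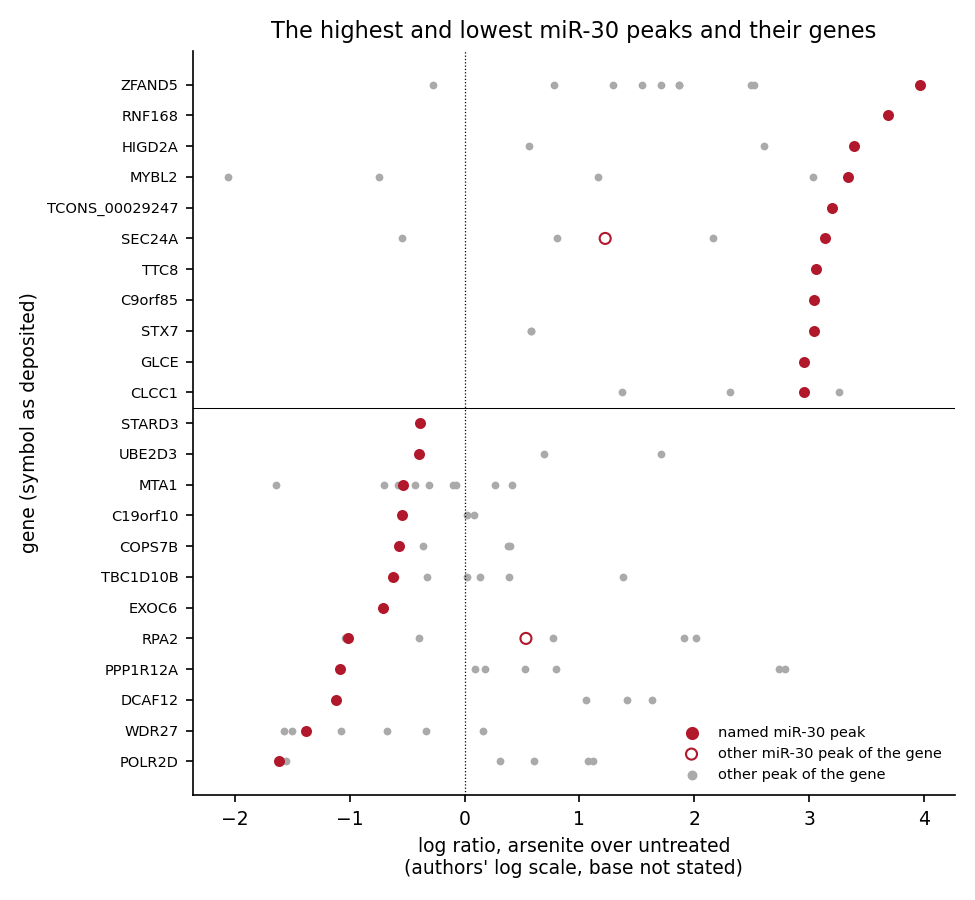
Log ratio (horizontal axis, the authors' log scale) of the highest and the lowest miR-30 peaks, 1 per gene (filled red, 1 of the 12 highest not drawn), with other miR-30 peaks (open red) and the other peaks of the gene (grey). The highest run from 2.95 to 3.97 and the lowest 12 from -1.61 to -0.39, and 8 of the 11 low genes with other peaks have a median of those peaks above 0. Among the 11, STARD3 has only 1 other peak, with values identical to its miR-30 peak.

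The 12 lowest miR-30 peaks ran from -1.61 to -0.39. In 8 of the 11 genes with other peaks, the median of those peaks lay above 0. These gene medians had a median of 0.38, against 1.65 in the 8 such genes of the 12 highest. The median over all single peaks was 0.65. POLR2D, a subunit of RNA polymerase II, had -1.61 in its 3'UTR in the authors' deposited table (chromosome 2, 128604837 to 128604888), the lowest of its 6 peaks, and the median of the other 5 was 0.61. DCAF12, a substrate receptor of the CUL4 ubiquitin ligase, had -1.12 in its CDS (chromosome 9, 34088408 to 34088467) beside a median of 1.42 at its 3 other peaks. PPP1R12A, the targeting subunit of myosin phosphatase, had -1.08 in its 3'UTR (chromosome 12, 80169418 to 80169479) beside 0.66 over 6 other peaks. A single low miR-30 peak did not stand for the transcript in these genes.

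WDR27 differed from them. Its CDS peak had -1.38 (chromosome 6, 170070717 to 170070766), and the median of its 6 other peaks was -0.88. The authors' deposited table gave -1.02 for RPA2, a subunit of the single-strand DNA binding complex RPA, -0.71 for EXOC6 of the exocyst, -0.62 for TBC1D10B, which inactivates Rab GTPases, and -0.57 for COPS7B of the COP9 signalosome. C19orf10 had -0.55, MTA1 of the NuRD chromatin complex -0.54, UBE2D3, a ubiquitin-conjugating enzyme, -0.40, and STARD3, a sterol carrier of late endosomes, -0.39. These 12 peaks had a median length of 57.5 nucleotides, against 36 for the highest 12, and 8 of the 12 matched miR-30 alone.

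In all, 22 miR-30 peaks lay below 0, of which 17 were in 3'UTRs, 3 in CDS and 16 matched miR-30 alone. Of the 19 in genes with other peaks, 13 had other peaks with a median above 0 and 6 below 0. The strongest miR-30 peaks by log average were not uniformly high. RHEBL1, a small GTPase related to Rheb, had the highest log average, 1.05, with a log ratio of 0.72 in the authors' deposited table (chromosome 12, 49458690 to 49458726). HIGD2A, named above for its log ratio of 3.39, came second with a log average of 0.77. SOCS3, an inhibitor of cytokine signalling, had a log average of -0.79 and a log ratio of -0.21 at its only peak (chromosome 17, 76353048 to 76353082). JOSD1, a deubiquitinase, had a log ratio of 1.19 and ANKRA2, an ankyrin repeat protein, 1.32.

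A list of textbook miR-30 targets held miR-30 peaks with log ratios on both sides of 0. Of 47 listed targets with any peak, 16, or 34.0%, had a miR-30 peak, where 5.12% of all genes did. This share was not adjusted for the number of peaks per gene. With 1 miR-30 peak per gene, that of the highest log average, 13 of the 16 lay above 0 and their median was 1.33. Counted the same way, 93.6% of the 312 genes were above 0, with a median of 1.60, and over the strongest peak of each of the 6088 genes 79.9% did. The other peaks of the listed target genes had a median of 0.90 over 193 peaks. The target list was written with earlier results on these data known.

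Among these targets, the glycosyltransferases GALNT7 and GALNT1, which start mucin-type glycans, had 2.54 and 1.61 in the authors' deposited table, with their 1 other peak each at 1.58 and 1.40. GNAI2, an inhibitory G protein subunit, had 2.07 and 2.23 at 2 peaks that lie 194 nucleotides apart, and its 3 other peaks had a median of 0.75. SIX4, a homeobox transcription factor, had 2.37 against 1.54 at its 6 other peaks, of which the 5 in its 3'UTR had a median of 2.07. CCNE2, cyclin E2 of the G1 to S transition, had 1.84 and 1.05, and its 5 other peaks had a median of 1.76. LIN28B, which blocks let-7 maturation, had 1.72 at a peak that also matches let-7 (chromosome 6, 105529282 to 105529321), and 0.35 at its 1 other peak.

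Lower values were listed for other targets. PPARGC1B, a coactivator of mitochondrial genes, had 0.77 and 1.15, and NEDD4, a ubiquitin ligase, 0.99 against 2.01 at its 1 other peak. IGF2R, the receptor that takes IGF2 to lysosomes, had 0.25 against -0.03 over 17 other peaks. The 6 of these 17 that lie in the 3'UTR had a median of 0.76. The 3 below 0 were BCL9, a Wnt coactivator, at -0.05, SOCS3 at -0.21 and MTA1 at -0.54 in the authors' deposited table. For MTA1 the 9 other peaks were low as well, with a median of -0.31, whereas the 2 other peaks of BCL9 had a median of 1.53.

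The silencing machinery itself carried miR-30 peaks. Of 32 genes of miRNA function and deadenylation with any peak, 7, or 21.9%, had a miR-30 peak, where 5.12% of all genes did. These 32 genes held 342 peaks without a miR-30 match, and all 6088 genes held 23706. The shares were not adjusted for the number of peaks per gene. All 7 lay above 0, 1 of them barely, where 93.6% of all miR-30 genes did. Their median was 1.38, where the other peaks of the listed genes had 0.70. TNRC6A and TNRC6C encode GW182 proteins, which link Argonaute to deadenylases. TNRC6A had 3 miR-30 peaks in its 3'UTR, with 0.39, 1.05 and 2.43 in order along the chromosome (chromosome 16, 24835553 to 24836710). By log ratio they ranked 21, 16 and 1 among its 27 peaks. Its 24 peaks without a miR-30 match had a median of 1.10, and the 13 of these in the 3'UTR 1.31. TNRC6C had 1.09 and 0.79 at 2 peaks, against 0.29 over its other peaks. EIF2C1, which encodes Ago1, had 1.38 at a peak that also matches miR-15/16, beside a median of 0.09 at its other peaks. In the CDS, EIF2C2, which encodes Ago2, had 1.56, and DICER1, the RNase that cuts miRNA precursors, 2.53 in the authors' deposited table. PABPC1, the poly(A) binding protein, had 0.02, also in the CDS. The other peaks of these 3 genes had medians of 0.95, 1.52 and 0.02. These 3 genes lie outside the rule for named genes and were chosen after their values had been seen.

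The counts above 0 in the other lists are likewise to be read against the 93.6% of all miR-30 genes. In these lists the share of genes with a miR-30 peak ran from 4.26% for stress genes to 15.9% for chromatin factors. Over all genes it was 5.12%, and none of these shares was adjusted for the number of peaks per gene. Cell cycle and replication genes had 5 of 52, all above 0 with a median of 1.55. CCNT2, a cyclin of transcription elongation, had 1.55 against a median of 1.29 at its other peaks. E2F3, a transcription factor of S phase entry, had 0.05 against 0.76. Ubiquitin, SUMO and cullin factors had 5 of 52, of which 4 lay above 0 with a median of 1.39. UBE2J1, a ubiquitin-conjugating enzyme of the endoplasmic reticulum, had 2.47 at its only peak. RNF220 had 1.65 against a median of 0.20 at its other peaks, and UBE3C 1.39 against 1.28. Chromatin and Polycomb factors had 11 of 69, of which 8 lay above 0 with a median of 1.60. There, SMARCD2 of the SWI/SNF complex had 1.66 against 1.40 at its other peaks, and CBX2, a Polycomb reader, 0.70 against -0.05.

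Developmental transcription factors had 5 of 51, of which 4 lay above 0, with the high median of 2.25. SOX4 had 2.44 and NFIB 1.16 in the authors' deposited table, against medians of 0.94 and 2.02 at their other peaks. Signalling genes of the TGF-beta, Notch, Wnt and receptor kinase pathways had 6 of 64, all above 0, with a median of 1.28. JAG2, a Notch ligand, had 2.74 against 0.03 at its other peaks, none of them in the 3'UTR. RASA1, which inactivates Ras, had 1.61 against -0.61, and PIK3R2, a regulatory subunit of PI3-kinase, 0.94 against -0.20. In these 3 genes the miR-30 peak lay above the median of the other peaks. The 2 seedless 3'UTR peaks of PIK3R2 had a median of 0.18.

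Golgi glycosylation and vesicle traffic genes had 9 of 68, all above 0 with a median of 1.52. B4GALT6, which makes lactosylceramide, had 1.52 against a median of 1.91 at its other peaks. VPS26B of the retromer had 1.04, RAB15 0.95 and AP2A1 of the clathrin adaptor AP-2 0.81, each at its only peak. Cytoskeleton and adhesion genes had 6 of 58, of which 5 lay above 0 with a median of 1.74. RHOB, a GTPase of actin dynamics, had 1.88 against 0.76 at its other peaks, and PFN2, a profilin, 1.77 against 0.70. MYH10, a nonmuscle myosin, had 1.71 against 1.23, and PLXNA1, a semaphorin receptor, 0.28 against 0.46. Autophagy, apoptosis and mitochondrial genes had 2 of 34, both above 0. Among them, BIRC6, a large inhibitor of apoptosis, had 1.51 against a median of 2.08 at its other peaks. The 47 arsenite and proteotoxic stress genes with any peak held 285 peaks without a miR-30 match. Of these genes 2, or 4.26%, had a miR-30 peak, where 5.12% of all genes did. They were GCLC, the catalytic subunit of the enzyme that starts glutathione synthesis, with 0.83 against 1.99 at its other peaks, and DDIT4, an inhibitor of mTORC1, with 0.22 against 0.92. In all, 60 of the 312 genes were in any list.

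**Figure D5:**
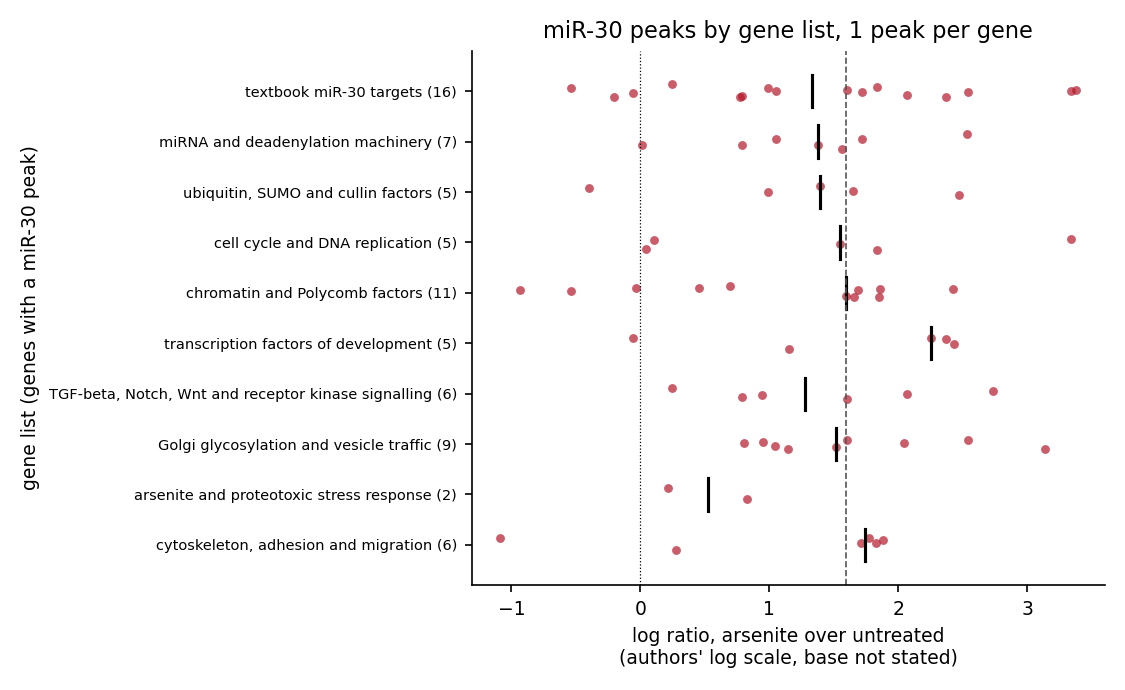
Log ratio (horizontal axis, the authors' log scale) of 1 miR-30 peak per gene, that of the highest log average, for the gene lists with the number of genes in brackets, the autophagy and apoptosis list not drawn. Short black bars are list medians, which run from 0.52 for the 2 stress genes to 2.25 for developmental transcription factors. The dashed line is the median of 1.60 over all 335 miR-30 peaks.

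Separate miR-30 peaks of 1 gene could differ widely. Of the 312 genes, 291 had 1 miR-30 peak and 21 had more, 19 of which had at least 2 that do not overlap. In 16 of these 19 all miR-30 peaks lay above 0, where 93.4% of all single miR-30 peaks did. The 3 exceptions, named after their values had been seen, were RPA2 with -1.02 and 0.53, MLL with -0.03 and 2.33 and PDE7A with 1.04 and -0.16 in the authors' deposited table. The spread between the highest and the lowest peak of a gene had a median of 0.64. It was largest, at 2.42, in CELSR3, a cadherin receptor of planar cell polarity, whose 3 miR-30 peaks in the 3'UTR had 2.65, 0.22 and 0.79 along the chromosome (chromosome 3, 48674511 to 48674988) with gaps of 126 and 157 nucleotides. The 2 other peaks of CELSR3, neither of them in the 3'UTR, had a median of -0.37, below each of the 3. The spread was 2.04 in TNRC6A and 1.92 in SEC24A, whose second peak lies 151 nucleotides from the first and had 1.22. In GNAI2 the spread was 0.16.

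The families most often matched beside miR-30 were miR-15/16 at 13 peaks, miR-17 at 10 and miR-181 at 8. Read against the size of each family, miR-30 matches stood in 3.79% of miR-101-3p peaks, 3.31% of miR-181 peaks and 2.82% of miR-26 peaks, where they stood in 1.39% of all peaks and in 1.31% of miR-15/16 and 1.40% of miR-17 peaks. Shares of this size also occurred for families whose sites share at most 1 end letter with the miR-30 site, such as miR-188-5p with 4.35%, miR-362-5p with 4.00%, miR-374a-5p with 3.28%, miR-340-5p with 3.23% and miR-23 with 3.06%. The counts behind these high shares are small, from 2 peaks for miR-362-5p to 8 for miR-181. Other families that share at most 1 end letter had lower shares, such as let-7 with 1.14%, miR-19 with 0.72% and miR-25/92 with 0.47%. With 2 shared letters, miR-10 had 3.09%, miR-196 2.45%, miR-3065-5p 1.78% and miR-17-3p 0.63%, and miR-27 had no shared peak. Whether shared letters bear on the shares was not tested. The sites of miR-101-3p, miR-181 and miR-26 share 3 end letters with the miR-30 site, so that 11 letters can hold both, shown 5′ to 3′ with the miR-30 site in capitals.
miR-101-3p and miR-30: guacUGUUUAC
miR-181 and miR-30: ugaaUGUUUAC
miR-26 and miR-30: UGUUUACuuga
The miR-100 site also shares 3 letters and was matched at none of the miR-30 peaks. Whether the shared peaks hold such joined sites was not tested, since no genome of the build was used. The 5 peaks shared with miR-101-3p had a median of 2.60, all above 0, and the 127 miR-101-3p peaks without a miR-30 match 1.42. The 13 shared with miR-15/16 had a median of 1.39 with 12 above 0, against 0.91 over the 981 other miR-15/16 peaks. Both peaks shared with miR-331-3p, in TBC1D10B and C19orf10, lay below 0.

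The miR-30 miRNAs on Ago2 were measured in the LO band libraries. In the authors' deposited table miR-30e-5p had means of 2014629 untreated and 1784402 with arsenite, a log2 fold change of -0.18 (DESeq p = 0.526). The log2 fold changes in the authors' deposited table were -0.15 for miR-30a-5p, -0.18 for miR-30d-5p, 0.43 for miR-30c-5p (DESeq p = 0.0598) and 0.21 for miR-30b-5p, and every adjusted p was 1. Over all 1213 entries of the authors' deposited table, an adjusted p under 0.05 was listed for 0% and an unadjusted p under 0.05 for 1.98%. The 3 abundant members thus had less signal and the 2 scarce ones more, none of it with an adjusted p under 0.05. Summed over all 11 arms, the family means from the authors' deposited table were 4604041 untreated and 4125249 with arsenite, a log2 ratio of -0.16. An adjusted p of 1 does not show that the amounts were equal.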

How the data were processed

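Ago2 CLIP values of peaks and of miRNAs from untreated and arsenite-treated 293S cells were used as the authors deposited them. Bowtie 0.12.8, TopHat, DESeq and the build hg19 are named in the submitters' processing notes, without a role. Which peak caller, filters and normalizer made the peak values is not given in the sources used here. Each peak has, per the file headers, 1 log average and 1 log ratio of normalized abundance, and 0 columns hold values of single samples, so depth and the precision it gives were unknown. In the miRNA table the means are signal values, that is counts of reads scaled by size factors and averaged per treatment by the authors, per the file headers. Beside them stand the authors' ratio (fold) of means and the deposited log2 of that ratio. The p-values, raw and adjusted, are from the authors' deposited DESeq run.

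From these values, medians, quartiles and counts above 0, above 1 and below -1 were computed with Python 3.11.15, pandas 2.3.3 and numpy 2.4.6, and plots were drawn with matplotlib 3.10.9. The scripts were tested on simulated data. Peak ends were taken as inclusive, since 732 peaks started 1 base after the end of the previous one, against 169 at the same base; coordinates are printed as deposited. Peaks named in the text were the 12 with the highest and the 12 with the lowest log ratio (1 per gene, log average in the upper 75%), the 5 of the highest log average, those of genes with 3 or more separate miR-30 peaks, those of all textbook targets, and those of up to 4 genes of each other list. ANAPC13, SH2B1, MALAT1, WHSC1, PGM3, MLL, PDE7A, EIF2C2, DICER1 and PABPC1 fall outside this rule and were named after their values had been seen. Results for 2 genes that the rule names are not reported here. The members, gene lists and rules were chosen with earlier results of these data known. Of 716 listed symbols, 530 matched the peak table. miRNA sequences were taken from RefSeq (GRCh38.p14), which matched 7 of 11 miR-30 arms and at least 1 member of 46 of the 50 families. Alternatives changed the filter on log average, peak length, overlapping peaks, several peaks per gene, other seed matches and noncoding exons.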

Additional observations from a re-analysis of the deposited data

How the results depend on the processing

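Of 49 alternatives computed, 47 kept the direction and stayed within the 95% interval of the value (order statistics or Wilson over peaks; for the LO band sum, 1 standard deviation over its members). These intervals treat peaks as independent. The median log ratio of all miR-30 peaks ran from 1.56 to 1.60 and the share above 0 from 92.9% to 93.7%. Restricting the table to the upper 75% of log averages made the median difference from other peaks of the same gene and region 0.22 instead of 0.44, and the cause was not tested. The same filter made the median difference from seedless peaks 0.49 instead of 0.72. The median of the members' log2 fold changes in the LO band was 0.057, where the log2 ratio of the summed means was -0.16; by construction it weights scarce and abundant arms alike. The alternative without seedless peaks that overlap a miR-30 peak was added after the data had been seen and left the difference at 0.72 over 172 pairs. No paired analysis was possible because the tables carry 1 value per feature and no replicate numbers, and leaving out single replicates was not possible for the same reason. The unknown log base, normalizer and depth limit all values, and peaks of 1 gene are not independent.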
